A study of Mus musculus with 66 samples.

Results

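The period genes Per1, Per2 and Per3 and the cryptochrome genes Cry1 and Cry2 were followed through a day in the nucleus accumbens (NAcc), the ventral part of the striatum, of mice given saline or cocaine. They are the 5 of the 24138 genes in the expression table whose symbols are those of the period and cryptochrome families, and they were chosen by symbol, not by their values. In the circadian clock, the activators CLOCK and BMAL1 bind E-boxes and switch on the period and cryptochrome genes. The PER and CRY proteins then assemble, enter the nucleus and repress the same activators, so that their own transcripts decline until the proteins are degraded and the cycle starts again. Per1 and Per2 are also known as genes that respond quickly to cAMP, calcium and glucocorticoid signals, and clock genes of the striatum are known for a part in responses to drugs of abuse.

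By the gene models of GENCODE M21 on GRCm38, which is mm10, Per1 spans chr11:69095217-69109960 on the plus strand. The other members lie on minus strands, Per2 at chr1:91415982-91459324, Per3 at chr4:151003652-151044665, Cry1 at chr10:85131700-85185064 and Cry2 at chr2:92403646-92434043. All 5 are annotated as protein-coding, with up to 23 exons in a transcript of Per1 and of Per2, 21 in Per3, 13 in Cry1 and 12 in Cry2. The stretches before their transcription starts were searched because clock genes are known to be timed through short elements there. RefSeq promoters of GRCm38.p6, read over the 250 bases before a start, were found for 4 of the 5 members, with 2 starts for Per1. The windows below hold the E-boxes (CACGTG), the related E-prime boxes (AACGTG) and the D-boxes (TTATGTAA) that were found, and capitals mark these motifs. They lie at chr11:69098763-69098808 for Per1 (plus strand, inside the GENCODE span), chr4:151044796-151044890 for Per3, chr10:85185089-85185153 for Cry1 and chr2:92434210-92434255 for Cry2 (all on the minus strand), and are written 5′ to 3′ in the direction of the gene.
Per1: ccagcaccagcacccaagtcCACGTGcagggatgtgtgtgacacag
Per3: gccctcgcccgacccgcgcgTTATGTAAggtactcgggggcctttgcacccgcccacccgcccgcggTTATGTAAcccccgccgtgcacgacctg
Cry1: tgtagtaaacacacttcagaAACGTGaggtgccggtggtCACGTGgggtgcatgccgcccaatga
Cry2: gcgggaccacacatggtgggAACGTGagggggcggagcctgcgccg

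An E-box ended 161 bases before the start of Per1 and 55 bases before that of Cry1. The E-prime boxes of Cry1 and Cry2 ended 74 and 161 bases before their starts, and the D-boxes of Per3 ended 198 and 151 bases before its start. Among 32851 promoters of the same length searched on both strands, 6.02% held an E-box, 3.85% an E-prime box and 0.819% the D-box TTATGTAA. The other D-box form, TTACGTAA, stood in 0.113% of promoters and in none of the 5 promoters of members. The full cAMP response element TGACGTCA stood in 1.55% of promoters and in none of these 5, whereas its core CGTCA, held by 17.8% of promoters, was present in 4 of them. The ROR core AGGTCA stood in 14.0% of promoters and in 1 of these 5, a Per1 promoter. A match describes the letters in these windows only.

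Libraries were made from NAcc punches of male C57BL/6 mice aged 3 to 5 months and kept under 12 h of light and 12 h of darkness, of 2 genotypes, WT and iMSN-D2RKO. The iMSN-D2RKO mice carry D2R flox/flox and D1R-CRE, in which the D1R promoter drives the recombinase in embryonic precursors of medium spiny neurons, so that the D2 receptor is lost from the indirect pathway neurons (iMSNs) while other cells with D2R keep it. Mice received saline or 20 mg/kg cocaine intraperitoneally at ZT3, 3 h after lights on, and were killed at ZT3, 7, 11, 15, 19 or 23, with 3 libraries in each of 22 groups and 66 in all. The ZT3 libraries of a genotype are listed under both treatments, so the saline and the cocaine series of 18 libraries share them. Which treatment the ZT3 mice received, if any, is not clear from the labels, and comparisons of genotypes in saline include these libraries. The values are FPKM, fragments scaled for transcript length and for the number of mapped fragments, so that levels of different genes can be compared.

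FPKM summed to between 364078 and 690048 per library (median 396432), 12496 to 13028 genes reached 1 FPKM, and the read depth is unknown. Drd2, the targeted gene, lay between 99.1 and 304 FPKM in 33 WT libraries (median 129) and between 78.0 and 375 in 33 iMSN-D2RKO libraries (median 112), so that its value per gene does not check the labels. All 10 marker genes of striatal spiny neurons were present in every library, Drd1 at 56.7 FPKM or more. On the leading principal component of the deviations from group means (43.6% of their variance), 13 libraries stood apart and are called the set-apart libraries. They were 6 of WT and 7 of iMSN-D2RKO, with none at ZT3 or ZT11. Only 1, in iMSN-D2RKO cocaine at ZT7, came from the light hours. At ZT19 they were 2 of the 3 libraries in WT saline, in WT cocaine and in iMSN-D2RKO saline. Being set apart thus cannot be fully told apart from time of day in values over all libraries. Each set-apart library was compared with the libraries of its group that are not set apart, so a group with 2 set-apart libraries counts as 2 cases. Cry2 was lower than in all of these in 11 of 13 cases (median ratio 0.800), Per1 in 9 (0.805) and Cry1 in 9 (0.911). Per2 was higher than in all of these in 10 (1.27), while Per3 was lower in 7 and higher in 5 (0.999). The library WT cocaine ZT15 replicate 3, which is not one of the 13, had the lowest total FPKM of all and at the same time the highest Per1 (104), Per2 (48.0), Per3 (32.1) and Cry2 (87.9) of the 66 libraries. Where a call or an order of the members rests on these libraries, the values without them are given too.

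Cry2 was the most abundant of the repressor transcripts and Per3 the least. Cry2, a cryptochrome that binds and inhibits CLOCK and BMAL1, averaged 48.2 FPKM ± 8.53 (SD, n = 66) and ranged from 33.1 to 87.9. Per1, the fastest of the period genes to respond to stimuli, averaged 33.4 ± 12.5 FPKM (17.4 to 104). The second cryptochrome, Cry1, averaged 15.3 ± 2.91 FPKM (10.9 to 22.9), and Per2, a scaffold for the repressor complex, 13.9 ± 6.29 FPKM (4.83 to 48.0). Per3, which the clock of mice can do without, averaged 10.5 ± 3.45 FPKM (6.56 to 32.1). Cry2 exceeded Per1 in 62 of 66 libraries and Per1 exceeded Cry1 in 65, so these steps of the order held in nearly every library. The lower part of the order was less firm, since Cry1 exceeded Per2 in 50 libraries and Per2 exceeded Per3 in 51, and the spreads of these neighbours overlapped. As whole punches were sequenced, fewer cells of a type and less RNA per cell cannot be told apart.

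**Figure D1:**
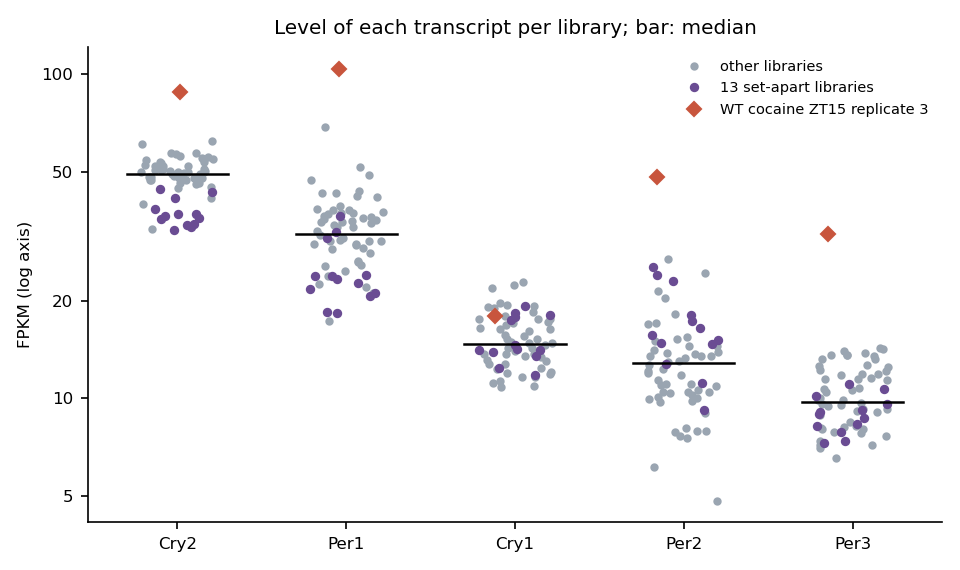
FPKM (vertical, log axis) of each repressor transcript in each of 66 libraries, with the median as a bar; purple points are the 13 set-apart libraries and the red diamond is WT cocaine ZT15 replicate 3. Medians fall from 49.0 for Cry2 to 9.77 for Per3, and the diamond is the highest point for every gene but Cry1.

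All 5 transcripts varied with time of day when the 66 libraries were fitted with a 24 h cosine (limma F test, Benjamini-Hochberg adjustment over 14643 genes), against a background of 51.0% of all genes tested. Adjusted p was 2.68e-08 for Per3, 8.53e-06 for Cry1, 1.00e-05 for Per2, 0.00209 for Cry2 and 0.00664 for Per1. Averaged over the libraries of a time point, each of the 5 was highest at ZT15, shortly after lights off. Without WT cocaine ZT15 replicate 3 this held for Per2 and Cry1 only, since Per1 then averaged 40.3 FPKM at ZT15 against 42.1 at ZT3, Per3 12.3 against 12.7 at ZT11, and Cry2 52.4 against 53.04 at ZT11. As a fold, Per2 had the widest swing of the group, from 10.2 ± 3.25 FPKM at ZT7 to 22.3 ± 9.27 at ZT15 (SD, n = 12 each, 19.9 ± 4.73 without that library). Cry2 had the narrowest fold, from 55.4 ± 11.96 at ZT15 to 42.3 ± 7.28 at ZT19. In FPKM the widest swing was that of Per1, from 45.6 at ZT15 to 25.6 at ZT23. The fitted peak-to-trough fold was 1.94 for Per2, 1.65 for Per3, 1.44 for Per1, 1.39 for Cry1 and 1.26 for Cry2. Without the set-apart libraries the rhythm of Per1 was no longer called (adjusted p = 0.152), and that of Cry2 was (0.0453). The Per1 rhythm was also lost when all libraries of replicate 1, 2 or 3 were left out (0.0690, 0.0541 and 0.0543), and the Cry2 rhythm without replicate 1 (0.0896), whereas all 5 were called without WT cocaine ZT15 replicate 3.

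**Figure D2:**
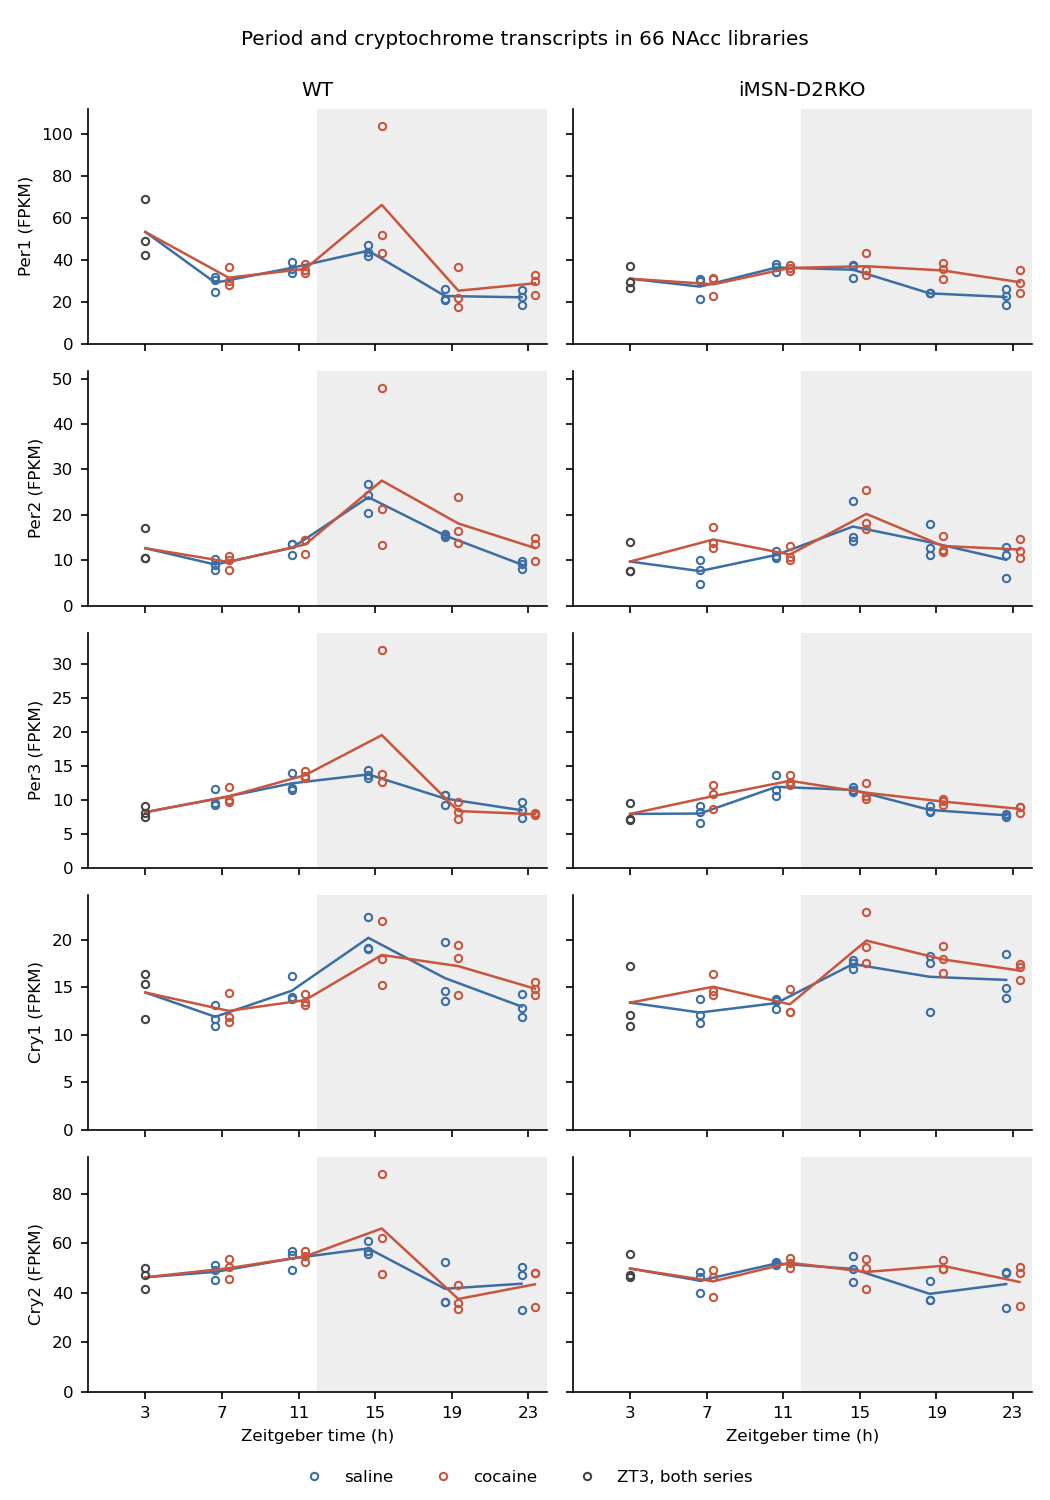
FPKM (vertical) of Per1, Per2, Per3, Cry1 and Cry2 against zeitgeber time in h, WT on the left and iMSN-D2RKO on the right; each circle is a library, lines join means of 3, saline and cocaine are shifted sideways for clarity and grey marks the dark hours. Per2 and Cry1 are highest at ZT15 in each of the 4 series, and the lone high points at ZT15 in WT cocaine are replicate 3, without which Per2 in that series averages 17.3 at ZT15 and 18.1 at ZT19.

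Per1 had its highest means at ZT3 and ZT15 in WT mice, although a second daily peak was not tested for. In WT it stood at 68.8, 42.2 and 48.7 FPKM at ZT3, and after saline at 30.5, 31.8 and 24.7 at ZT7, 35.4, 39.1 and 33.8 at ZT11, 47.2, 43.7 and 41.9 at ZT15, 20.7, 21.1 and 26.2 at ZT19 and 18.5, 22.1 and 25.6 at ZT23. It was thus high at ZT3 and again at ZT15, with no library of ZT7, ZT11, ZT19 or ZT23 reaching the lowest of either. After cocaine WT Per1 was 36.3, 29.9 and 28.003 at ZT7, 35.1, 33.7 and 38.1 at ZT11, 51.6, 43.0 and 104 at ZT15, 21.7, 17.4 and 36.6 at ZT19 and 32.9, 29.96 and 23.3 at ZT23. In iMSN-D2RKO the ZT3 values were 29.1, 26.5 and 37.2 FPKM, all below the WT values. After saline these mice had 21.1, 29.7 and 30.6 at ZT7, 34.3, 38.1 and 36.5 at ZT11, 37.5, 31.1 and 37.1 at ZT15, 23.9, 23.9 and 24.1 at ZT19 and 25.8, 22.5 and 18.3 at ZT23, so that ZT11 and ZT15 were high and ZT19 and ZT23 low. After cocaine they had 30.8, 22.7 and 31.3 at ZT7, 37.4, 34.8 and 35.99 at ZT11, 43.1, 35.1 and 32.5 at ZT15, 38.4, 35.6 and 30.6 at ZT19 and 23.9, 28.8 and 35.1 at ZT23, so that the values of ZT11 to ZT19 lay close together.

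Per2 was highest at ZT15 in all 4 series, in WT cocaine only with replicate 3 included. WT libraries had 17.0, 10.4 and 10.4 FPKM at ZT3, and after saline 7.86, 8.998 and 10.2 at ZT7, 13.5, 13.5 and 11.1 at ZT11, 26.9, 24.3 and 20.5 at ZT15, 15.7, 15.2 and 15.4 at ZT19 and 9.23, 8.12 and 9.81 at ZT23. The 3 saline libraries of ZT15 were above every other library of that series. After cocaine WT Per2 stood at 9.96, 10.98 and 7.92 at ZT7, 14.5, 11.4 and 14.5 at ZT11, 21.4, 13.3 and 48.0 at ZT15, 16.5, 13.8 and 23.9 at ZT19 and 13.5, 9.74 and 14.8 at ZT23, with ZT15 the widest group. Without replicate 3 the WT cocaine mean of ZT15 was 17.3, below the 18.1 of ZT19. In iMSN-D2RKO, Per2 was 7.52, 7.66 and 13.9 at ZT3, and after saline 4.83, 7.93 and 10.03 at ZT7, 10.5, 10.9 and 12.1 at ZT11, 15.1, 23.1 and 14.1 at ZT15, 18.03, 11.1 and 12.8 at ZT19 and 12.98, 6.17 and 11.1 at ZT23. After cocaine the values were 13.7, 17.4 and 12.6 at ZT7, 13.02, 10.6 and 10.1 at ZT11, 18.2, 16.9 and 25.5 at ZT15, 12.3, 15.2 and 11.8 at ZT19 and 14.7, 10.4 and 11.99 at ZT23. The highest value at ZT15 of each iMSN-D2RKO series, 23.1 and 25.5, came from a set-apart library.

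Per3 had the lowest p-value for rhythm of the 5, and its high values fell around lights off. In WT it was 9.05, 7.40 and 8.06 FPKM at ZT3, and after saline 9.24, 11.5 and 9.53 at ZT7, 11.5, 14.0 and 11.8 at ZT11, 14.3, 13.6 and 13.2 at ZT15, 10.7, 9.19 and 10.7 at ZT19 and 7.27, 8.48 and 9.61 at ZT23. After cocaine it was 11.9, 9.68 and 9.90 at ZT7, 13.2, 13.5 and 14.2 at ZT11, 13.8, 12.7 and 32.1 at ZT15, 8.20, 7.19 and 9.60 at ZT19 and 8.04, 7.68 and 7.87 at ZT23. Apart from replicate 3 at ZT15, the WT cocaine libraries of ZT11 and ZT15 lay between 12.7 and 14.2. In iMSN-D2RKO, Per3 was 7.20, 7.03 and 9.49 at ZT3, and after saline 6.56, 8.19 and 9.15 at ZT7, 10.6, 13.6 and 11.5 at ZT11, 11.4, 11.1 and 11.9 at ZT15, 9.05, 8.14 and 8.32 at ZT19 and 7.80, 7.90 and 7.41 at ZT23. After cocaine it was 12.2, 8.68 and 10.8 at ZT7, 12.2, 12.6 and 13.6 at ZT11, 10.5, 12.5 and 10.1 at ZT15, 9.86, 10.05 and 9.28 at ZT19 and 8.98, 8.88 and 8.11 at ZT23. Its highest group in both iMSN-D2RKO series was ZT11, before lights off.

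Mean Cry1 was highest after lights off and stayed above its ZT7 mean through the night in each series, although libraries of ZT7 and ZT23 partly overlapped. WT libraries had 16.4, 11.6 and 15.3 FPKM at ZT3, and after saline 10.9, 11.6 and 13.1 at ZT7, 16.2, 14.0 and 13.7 at ZT11, 22.4, 18.99 and 19.1 at ZT15, 14.6, 13.5 and 19.7 at ZT19 and 11.8, 14.2 and 12.8 at ZT23. After cocaine they had 11.9, 14.3 and 11.3 at ZT7, 13.4, 13.1 and 14.3 at ZT11, 21.9, 15.3 and 17.9 at ZT15, 14.1, 19.4 and 18.01 at ZT19 and 15.5, 14.8 and 14.2 at ZT23. At ZT15 the outlying cocaine replicate 3 was the middle value for Cry1, unlike for the 4 other members. In iMSN-D2RKO, Cry1 was 10.9, 12.01 and 17.2 at ZT3, and after saline 11.2, 12.1 and 13.7 at ZT7, 12.7, 13.5 and 13.7 at ZT11, 16.9, 17.8 and 17.6 at ZT15, 18.3, 17.5 and 12.4 at ZT19 and 18.5, 14.9 and 13.9 at ZT23. After cocaine it was 14.6, 14.1 and 16.4 at ZT7, 14.8, 12.3 and 12.4 at ZT11, 22.9, 17.6 and 19.2 at ZT15, 17.97, 19.3 and 16.4 at ZT19 and 17.4, 15.7 and 17.1 at ZT23. ZT15 and ZT19 thus held the highest means in each series, with overlap between neighbouring time points. ZT23 did not share this in WT saline, where its mean of 12.95 FPKM was below those of ZT3 (14.4) and ZT11 (14.6).

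Cry2 had the smallest daily fold, and its low values were mostly those of set-apart libraries. In WT it was 49.98, 41.5 and 47.0 FPKM at ZT3, and after saline 45.0, 51.1 and 49.0 at ZT7, 55.2, 57.0 and 49.0 at ZT11, 60.7, 57.0 and 55.8 at ZT15, 36.4, 36.1 and 52.2 at ZT19 and 33.1, 47.3 and 50.4 at ZT23. The 3 low values of ZT19 and ZT23 are set-apart libraries. After cocaine WT Cry2 was 50.4, 53.5 and 45.7 at ZT7, 52.5, 56.7 and 54.7 at ZT11, 62.1, 47.7 and 87.9 at ZT15, 35.8, 33.2 and 43.2 at ZT19 and 47.9, 48.0 and 34.1 at ZT23. In iMSN-D2RKO it was 46.3, 47.2 and 55.6 at ZT3, and after saline 39.7, 46.3 and 48.4 at ZT7, 52.4, 51.9 and 50.9 at ZT11, 49.7, 44.3 and 54.6 at ZT15, 37.0, 44.5 and 37.0 at ZT19 and 48.0, 48.5 and 33.8 at ZT23. After cocaine these mice had 46.2, 38.4 and 49.1 at ZT7, 52.0, 54.1 and 49.9 at ZT11, 53.5, 50.1 and 41.4 at ZT15, 53.0, 49.7 and 49.7 at ZT19 and 34.5, 47.9 and 50.5 at ZT23. At ZT19 this last series stood at the level of its ZT11 and ZT15 libraries, while in the 3 other series the mean at ZT19 was below those of ZT11 and ZT15.

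Rhythm was next tested in each series by JTK_CYCLE, a rank test against cosine-shaped orders, whose null distribution is exact, with periods of 20 and 24 h and a corrected p under 0.01 as the cutoff. In WT saline 3 of the 5 members were rhythmic by this exact test, against 9.81% of all genes tested, namely Per2 (corrected p = 1.43e-06), Per3 (6.22e-05) and Cry1 (0.00533). Per1 (1) and Cry2 (0.166) were not called. The Cry1 call was lost when any of 8 of the 18 libraries was left out, the 8 being ZT7 replicates 1 and 2, ZT15 replicates 1, 2 and 3, ZT19 replicate 3 and ZT23 replicates 1 and 3, with corrected p of up to 0.0216, and with a period of 24 h alone (0.0568). The calls of Per2 and Per3 were kept without each library. In WT cocaine Per3 alone was called (1.15e-04, against 7.61% of genes), and Per2 (0.0296), Cry1 (0.0269) and Cry2 (0.0216) stayed above the cutoff. Single libraries again decided 3 of these, since Per2 was called without cocaine ZT15 replicate 2, Cry1 without ZT3 replicate 2 or cocaine ZT19 replicate 1, and Cry2 without cocaine ZT7 replicate 3, ZT15 replicate 1 or ZT15 replicate 3.

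In iMSN-D2RKO saline, where 2.58% of genes were called, Per2 (exact corrected p = 0.00143) and Per3 (0.00371) were rhythmic, and Per1 (0.0359), Cry1 (0.0476) and Cry2 (0.945) were not. Both calls were lost without ZT3 replicate 1 or without ZT3 replicate 2, and without the set-apart libraries (0.0287 for Per2 and 0.0318 for Per3). Per1 was called in that series without ZT3 replicate 3 or saline ZT7 replicate 1, and Cry1 without saline ZT19 replicate 3. In iMSN-D2RKO cocaine, where 1.10% of genes were called, Per3 was rhythmic (1.15e-04), and Cry1 (0.0410), Per1 (0.211), Per2 (0.340) and Cry2 (1) were not. Cry1 passed the cutoff there without ZT3 replicate 3. Without the set-apart libraries the series had 4, 1, 0 and 1 members called (WT saline, WT cocaine, iMSN-D2RKO saline and iMSN-D2RKO cocaine), against 6.43%, 2.38%, 1.19% and 1.92% of all genes. Per3 was among them in WT saline, WT cocaine and iMSN-D2RKO cocaine, and Cry2 was added in WT saline (0.00811). A 24 h cosine fitted by limma within a series called Per2 (adjusted p = 0.0368) and Per3 (0.00997) in WT saline, Per3 in WT cocaine (0.0251) and no member in iMSN-D2RKO, against 14.1%, 14.6%, 0.00707% and 0% of genes in the order above. By JTK_CYCLE with all libraries, Per3 was the one member called in each of the 4 series, although the 2 series of a genotype share their ZT3 libraries and are not separate evidence.

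**Figure D3:**
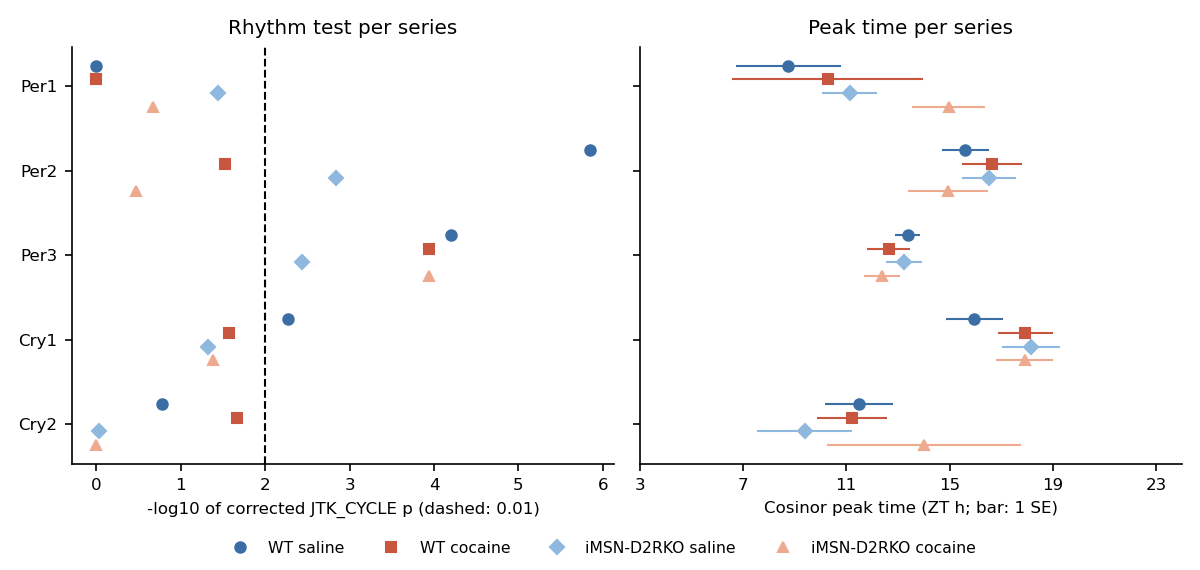
Left, -log10 of the corrected JTK_CYCLE p for each member and series, with the cutoff of 0.01 dashed; right, time of the fitted 24 h cosine's peak in ZT h, with bars of 1 SE. Per3 lies beyond the cutoff in all 4 series, and its peak comes before those of Per2 and Cry1 in each.

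The fitted peaks followed one another in the order Per3, Per2 and Cry1 in each series. In WT saline, the 24 h cosine on log2(FPKM + 1) peaked at ZT13.4 ± 0.47 h for Per3, ZT15.6 ± 0.90 for Per2 and ZT16.0 ± 1.10 for Cry1 (SE, n = 18). In WT cocaine the times were ZT12.6 ± 0.84, ZT16.7 ± 1.16 and ZT17.9 ± 1.05. In iMSN-D2RKO saline they were ZT13.2 ± 0.70, ZT16.5 ± 1.04 and ZT18.2 ± 1.13, and in iMSN-D2RKO cocaine ZT12.4 ± 0.69, ZT14.9 ± 1.54 and ZT17.9 ± 1.12. The gap between Per2 and Cry1 was smaller than their errors in WT saline, and peak times of genes measured in the same libraries were compared without a test. Cry2 peaked between ZT9.39 ± 1.83 and ZT14.0 ± 3.75, and Per1 between ZT8.77 ± 2.03 and ZT15.0 ± 1.41, with errors of up to 3.75 and 3.69 h. The peak-to-trough fold of Per2 was 1.996 in WT saline, 2.01 in WT cocaine, 1.93 in iMSN-D2RKO saline and 1.51 in iMSN-D2RKO cocaine, and that of Per3 was 1.62, 2.03, 1.53 and 1.47. Without cocaine ZT15 replicate 3, the WT cocaine folds were 1.65 for Per2 and 1.74 for Per3.

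Whether a rhythm differed between series was tested directly, since a call in one series only does not show a difference. No member passed this limma test of the interaction between group and 24 h cosine in any of the 4 comparisons, nor did any other gene (0%). At an unadjusted p under 0.05, 1 of the 20 tests of members passed, that of Per1 for cocaine versus saline in iMSN-D2RKO (adjusted p = 0.594). That unadjusted limit was passed by 1.38% of all genes for cocaine versus saline in WT, 5.54% in iMSN-D2RKO, and for iMSN-D2RKO versus WT by 2.48% in saline and 6.21% after cocaine.

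The next question was whether cocaine moved the level of the repressors after ZT3. Averaged over ZT7 to ZT23, no member differed between cocaine and saline in WT or in iMSN-D2RKO (limma, log2(FPKM + 1), adjusted p under 0.05), where 2 genes in all were called in WT (0.0137%) and 0 in iMSN-D2RKO (0%). At an unadjusted p under 0.05, 1 member in WT and 3 in iMSN-D2RKO passed, against 2.49% and 4.86% of genes. In WT the difference of Per1 was 0.20 ± 0.10 on the log2 scale (SE, 95% interval 0.01 to 0.39, adjusted p = 1), and those of Per2, Per3, Cry1 and Cry2 were 0.16 ± 0.12, 0.04 ± 0.07, 0.03 ± 0.07 and 0.01 ± 0.07. In iMSN-D2RKO the differences were 0.20 ± 0.10 for Per1, 0.27 ± 0.12 for Per2 (0.02 to 0.52), 0.15 ± 0.07 for Per3, 0.14 ± 0.07 for Cry1 and 0.07 ± 0.07 for Cry2, with adjusted p of at least 0.910. The 95% intervals of the WT cryptochromes ran from -0.11 to 0.16 for Cry1 and from -0.13 to 0.16 for Cry2. The effect of cocaine did not differ between the genotypes for any member at either limit, with differences from 0.00 ± 0.13 for Per1 to 0.12 ± 0.17 for Per2, while 0% of genes passed the adjusted and 1.85% the unadjusted limit.

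Taken time point by time point, cocaine versus saline gave 0 called pairs of member and time point in 25 for WT and 0 in 25 for iMSN-D2RKO (limma). Of all genes, 0.00683% were called at ZT7 and at ZT15 and 0.0205% at ZT19 in WT, 0.0137% at ZT7 in iMSN-D2RKO, and 0% at the other time points. At an unadjusted p under 0.05 there were 2 pairs in WT, Per1 and Per3 at ZT15, where 6.79% of genes passed. In iMSN-D2RKO there were 4, Per2 and Per3 at ZT7, where 22.9% passed, and Per1 and Cry2 at ZT19, where 16.0% passed. The WT differences at ZT15, 0.46 ± 0.21 for Per1 (adjusted p = 0.694) and 0.36 ± 0.17 for Per3 (0.697), became 0.09 and -0.05 without cocaine replicate 3.

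Per2 at ZT7, 4 h after the injection, was the largest cocaine difference among the members in iMSN-D2RKO. It stood at 13.7, 17.4 and 12.6 FPKM after cocaine against 4.83, 7.93 and 10.03 after saline, a log2 difference of 0.89 ± 0.27 (95% interval 0.34 to 1.44, adjusted p = 0.113). The 2 groups did not overlap, as was the case with the cocaine values higher for 7.93% of all genes at that time point. Cry1 did not overlap either (14.6, 14.1 and 16.4 against 11.2, 12.1 and 13.7), with a difference of 0.27 ± 0.15 and an adjusted p of 0.254. The lowest Per2 value came from saline replicate 1, a library with the highest total FPKM of the series and a summed level of 10 spiny neuron markers of 15629 FPKM against 4413 and 5767 in its group. Without it the difference was 0.64 (adjusted p = 0.787), whereas without saline replicate 2 or 3 it was called at 0.94 (0.0422) and 1.10 (0.0172). The highest, 17.4, was a set-apart library, without which the difference was 0.77 (adjusted p = 0.354). The part of these libraries in the result was not tested. In WT at the same hour the values were 9.96, 10.98 and 7.92 against 7.86, 8.998 and 10.2, and the difference between the genotypes in the effect was 0.82 ± 0.39 (adjusted p = 0.658). Of the 25 such differences, 0 were called, against 0.0137% of genes at ZT7 and 0% at the other time points, and 2 passed an unadjusted p under 0.05, Per2 at ZT7 (6.31% of genes) and Cry2 at ZT19 (20.2%).

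At ZT19 the iMSN-D2RKO mice had Per1 at 38.4, 35.6 and 30.6 FPKM after cocaine and at 23.9, 23.9 and 24.1 after saline. The difference of 0.52 ± 0.21 had an adjusted p of 0.304, and Cry2, at 53.0, 49.7 and 49.7 against 37.0, 44.5 and 37.0, differed by 0.36 ± 0.17 (0.304). Per1, Per3 and Cry2 were each higher in all 3 cocaine libraries than in the saline ones, as were 6.16% of genes. At ZT23 this held for Per3 alone of the members, and for 1.82% of genes. Replicates 1 and 3 of that saline group are set-apart libraries, and no cocaine library of ZT19 is. Without the set-apart libraries, with 1 saline library left whose spread was taken from the other groups, the Per1 difference was 0.52 with an adjusted p of 1. Some summed markers did not overlap either. Those of astrocytes (5 genes) were 226, 237 and 210 FPKM after cocaine and 338, 263 and 365 after saline. Those of glutamatergic neurons (5 genes) were 187, 178 and 190 against 145, 30.6 and 155. Those of spiny neurons overlapped, at 4637, 5010 and 4167 against 5443, 4321 and 3779. The part of these markers in the result was not tested.

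**Figure D4:**
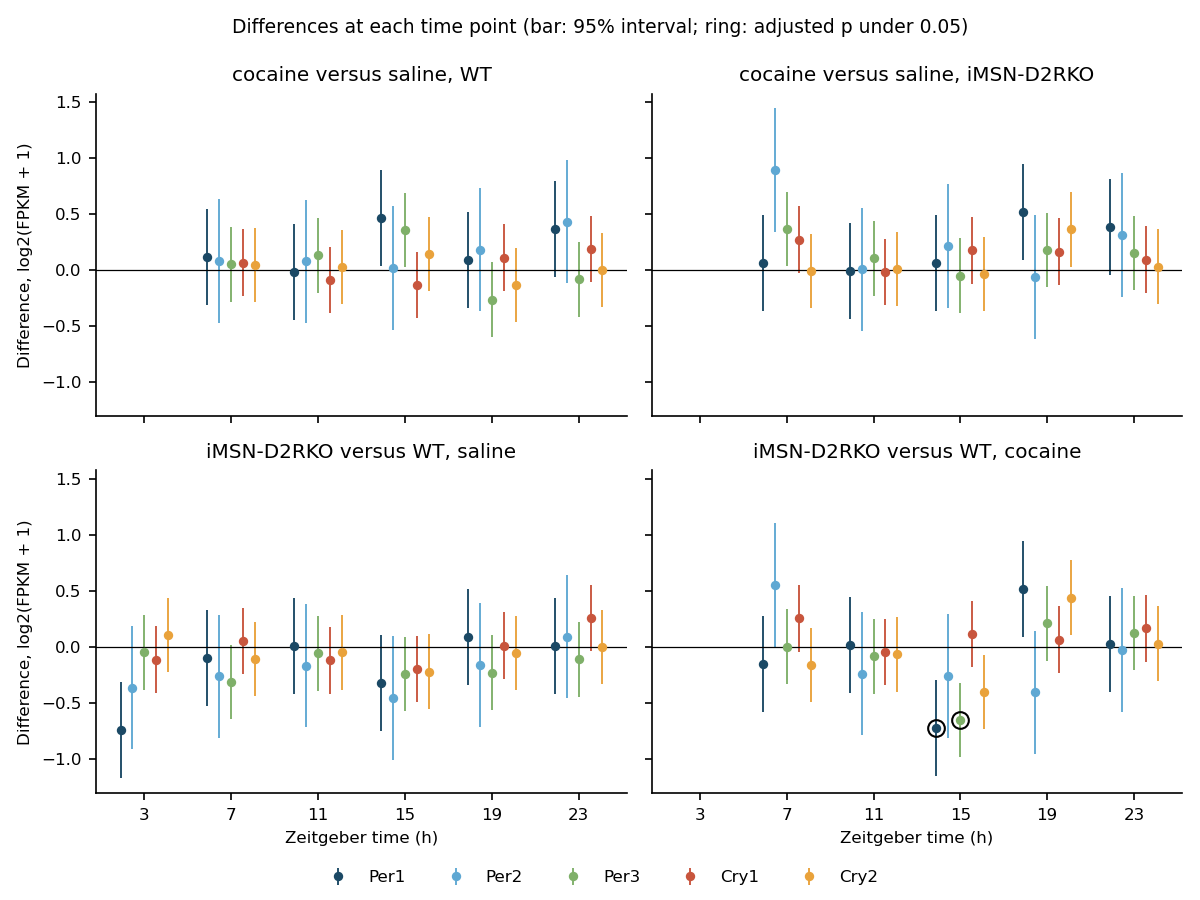
Difference in log2(FPKM + 1) at each zeitgeber time (h) for cocaine versus saline (top) and iMSN-D2RKO versus WT (bottom), with 95% intervals; rings mark adjusted p under 0.05. Only Per1 and Per3 at ZT15 after cocaine carry rings, at -0.73 and -0.65, and Per1 at ZT3 reaches -0.75 without one.

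The genotypes were then compared within each treatment. Over all time points in saline no member differed, against 0.212% of all genes, and 2 members and 10.5% of genes passed an unadjusted p under 0.05. The period genes had lower means in iMSN-D2RKO, with differences of -0.18 ± 0.09 for Per1, -0.22 ± 0.11 for Per2 and -0.17 ± 0.07 for Per3 (95% interval -0.30 to -0.03, adjusted p = 0.348), while Cry1 and Cry2 gave -0.02 ± 0.06 and -0.06 ± 0.07. After cocaine, averaged over ZT7 to ZT23 only, no member passed the adjusted or the unadjusted limit, which 0.109% and 4.95% of genes did. The differences ran from -0.08 ± 0.12 for Per2 to 0.11 ± 0.07 for Cry1. The saline average includes ZT3, where Per1 averaged 30.9 FPKM in iMSN-D2RKO and 53.2 in WT, so the saline and cocaine averages cover different hours.

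Of the 30 pairs of member and time point, 0 were called by limma between the genotypes in saline, against 0.0410% of genes at ZT3, 3.07% at ZT7, 0.0205% at ZT19 and 0% at ZT11, ZT15 and ZT23. An unadjusted p under 0.05 was reached by 1 pair, at ZT3, where 2.04% of genes passed. That pair was Per1 at ZT3, where the WT values of 68.8, 42.2 and 48.7 FPKM lay above the iMSN-D2RKO values of 29.1, 26.5 and 37.2. The difference was -0.75 ± 0.21 (95% interval -1.18 to -0.32, adjusted p = 0.503), and 6.52% of genes were likewise lower without overlap. Leaving out single libraries of ZT3 moved it between -0.55, without WT replicate 1, and -0.90, without WT replicate 2, and ended in no call. Only 6 genes were called at ZT3 (0.0410%), all lower in iMSN-D2RKO, and they include Egr2, an immediate early gene, at -2.49 ± 0.46 (adjusted p = 0.00843). All 16 immediate early genes of a list had negative differences there with a median of -1.34, against 0.01 for all genes, and 1 of the 16 was called. Their summed level was 1481, 605 and 879 FPKM in WT and 299, 331 and 530 in iMSN-D2RKO, and in each genotype the library with the highest sum also had the highest Per1. All 10 glucocorticoid-induced genes of another list were below 0 as well, with a median of -0.32 and 1 called, Sgk1, a kinase gene, at -1.24 (adjusted p = 0.0317). The part of these genes' state in the Per1 value was not tested. At ZT15 in saline, Per1, Per3, Cry1 and Cry2 were each lower in all 3 iMSN-D2RKO libraries than in the WT libraries, as were 9.03% of genes, with differences of -0.33 ± 0.21, -0.24 ± 0.17, -0.20 ± 0.15 and -0.22 ± 0.17 and adjusted p of 0.824 for each. Single members were lower without overlap at ZT7 and ZT19 (Per3, with 7.23% and 1.81% of genes) and at ZT11 (Cry1, with 4.88%).

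After cocaine, 2 of 25 pairs were called between the genotypes, both at ZT15 and both lower in iMSN-D2RKO, where 4.40% of genes were called and 22.3% passed an unadjusted p under 0.05. Elsewhere 0% of genes were called at ZT7 and ZT11 and 0.0137% at ZT23. Per1 stood at 43.1, 35.1 and 32.5 FPKM against 51.6, 43.0 and 104 in WT, and fell by 0.73 ± 0.21 on the log2 scale (adjusted p = 0.0413). Per3 stood at 10.5, 12.5 and 10.1 against 13.8, 12.7 and 32.1, and fell by 0.65 ± 0.17 (adjusted p = 0.0236). Per3 did not overlap between the genotypes, as for 6.95% of genes in that direction, whereas Per1 did overlap. Both calls rest on WT cocaine ZT15 replicate 3. Without it the differences were -0.35 for Per1 (adjusted p = 0.501) and -0.25 for Per3 (0.482). They were also lost without iMSN-D2RKO cocaine ZT15 replicate 3, which is a set-apart library (0.238 and 0.162), the Per1 call without replicate 2 of that group (0.0810) and the Per3 call without its replicate 1 (0.0559). Cry2, at 53.5, 50.1 and 41.4 against 62.1, 47.7 and 87.9, differed by -0.40 ± 0.17 (adjusted p = 0.134), and it was called without WT replicate 2 (-0.61, adjusted p = 0.0211). Per2 and Cry1 differed by -0.26 ± 0.27 and 0.11 ± 0.15.

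Sums of cell type markers in these libraries overlapped between the genotypes. The summed level of 5 glutamatergic neuron markers, which include Slc17a7, was 97.4, 97.7 and 28.2 FPKM in the WT cocaine libraries of ZT15 and 36.6, 45.9 and 7.97 in the iMSN-D2RKO ones, and none of the 5 was at 0 in any library. The 10 spiny neuron markers summed to 5117, 3077 and 3670 in WT and 6295, 5058 and 5399 in iMSN-D2RKO. WT replicate 3 also had the lowest summed astrocyte markers of its group, at 169 against 196 and 287. The part of these differences in the Per1 and Per3 results was not tested.

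At ZT19 after cocaine, where 11.9% of genes were called and 37.9% passed an unadjusted p under 0.05, Per1 and Cry2 had higher means in iMSN-D2RKO. Cry2 was 53.0, 49.7 and 49.7 FPKM in iMSN-D2RKO and 35.8, 33.2 and 43.2 in WT, a difference of 0.44 ± 0.17 (adjusted p = 0.0605) without overlap, as for 18.2% of genes in that direction. Per1, at 38.4, 35.6 and 30.6 against 21.7, 17.4 and 36.6, differed by 0.51 ± 0.21 (adjusted p = 0.0794). Some marker sums stood apart as well, while those of spiny neurons overlapped (4637, 5010 and 4167 FPKM in iMSN-D2RKO against 3634, 3811 and 5079 in WT). Astrocyte markers summed to 226, 237 and 210 FPKM in iMSN-D2RKO against 377, 406 and 294 in WT, the 5 microglial markers to 81.2, 86.6 and 70.95 against 105.2, 89.2 and 99.7, and glutamatergic markers to 187, 178 and 190 against 146, 54.98 and 158, with no overlap in any of these, and their part in the result was not tested. WT replicates 1 and 3 are set-apart libraries there. Without the set-apart libraries, WT replicate 2 alone was left, and the differences were 0.60 for Cry2 and 0.96 for Per1. That library had the lowest Per1 of all 66 (17.4). At 22.5, it also had the highest score on the leading component of the libraries not set apart. With the score as a covariate the differences were 0.19 for Cry2 and 0.39 for Per1, with limma adjusted p of at least 0.413. Per1 was called without WT replicate 3 alone (0.81, adjusted p = 0.0475). Members higher in iMSN-D2RKO without overlap at other time points after cocaine were Per2 at ZT7 (17.4% of genes) and Per3 and Cry1 at ZT23 (3.32%).

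Genes around the repressors were read from lists of known partners and clock genes. Of 16 partners of PER and CRY, 8 were rhythmic over all libraries, a share near that of all genes. Among those with the lowest p-values were Ciart, a repressor of CLOCK and BMAL1, with a fitted peak at ZT11.4 ± 0.45 h and a fold of 2.07, Usp2, which removes ubiquitin from PER and CRY (ZT10.1 ± 0.50, 1.51), and Nono, a PER binding protein (ZT20.8 ± 1.10, 1.43). Of 15 other clock genes, 11 were rhythmic, beside the same 51.0% of all genes. In the fit over all libraries, Nr1d1, which encodes REV-ERB alpha, peaked at ZT9.40 ± 0.47 and Dbp, a D-box activator, at ZT9.81 ± 0.51. Both came before the 5 repressors there, whereas Arntl, which encodes BMAL1, peaked at ZT21.5 ± 0.50, after them. This order was not tested. In single series, the earliest fitted peaks of Per1 and Cry2, given above, were as early as those of Nr1d1 and Dbp here. The fold of Dbp was 2.18, above that of Per2, and those of Arntl and Nr1d1 were 1.71 and 1.70. Over the same libraries the repressors peaked at ZT11.6 ± 0.88 (Cry2), ZT11.98 ± 1.01 (Per1), ZT12.9 ± 0.42 (Per3), ZT15.9 ± 0.52 (Per2) and ZT17.3 ± 0.53 (Cry1).

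In level, 0 partners and 0 other clock genes were called by limma for cocaine versus saline in either genotype or between the genotypes in either treatment. Of the 16 immediate early genes, 1 was called for cocaine versus saline in WT, Nr4a1 at 0.70 ± 0.14 (adjusted p = 0.0326), and 0 in the other 3 comparisons. The list's median was 0.39 in WT and 0.30 in iMSN-D2RKO for cocaine versus saline, beside medians of 0 and -0.01 for all genes. Of the 10 glucocorticoid-induced genes, read because Per1 responds to that hormone, 10 were rhythmic over all libraries, beside 51.0% of all genes, and 0 differed in level in any of the 4 comparisons. Plin4, which coats lipid droplets, had the lowest p-value of that list, with a peak at ZT14.6 ± 0.43 and a fold of 2.88. After cocaine, Nr1d1 was called between the genotypes at ZT15 (-0.62 ± 0.18, limma adjusted p = 0.0414), where 4.40% of all genes were called and WT replicate 3 is included. At ZT19, 3 of 16 partners, 2 of 15 clock genes, 3 of 16 immediate early genes and 1 of 10 glucocorticoid-induced genes were called. These counts stand beside 11.9% of all genes, and 2 of the WT libraries compared there are set apart. Among the genes called were Csnk1d, a kinase of PER, at 0.57 ± 0.18 (adjusted p = 0.0444) and Nono at -0.999 ± 0.30 (0.0441). Csnk1d was picked here after its values were seen.

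The profiles most like each repressor were found by Pearson's r over the 22 group means of log2(FPKM + 1) among 9584 genes with a mean of at least 5 FPKM. The groups include the set-apart libraries, and r describes likeness only. Per1 was most like Kdm6b (0.909), Nadk (0.892) and Irf2bp2 (0.888), and among the genes most like Per3 were Adcy9 (0.921) and Slc24a4 (0.901). The closest to Per2 were Arhgef18 (0.871), Mtf1 (0.867) and Cry1 (0.865), and to Cry1 they were Luc7l (0.894), Per2 (0.865) and Phf8 (0.856). Cry2 was most like Khsrp (0.956), Ints1 (0.950) and Ambra1 (0.939). Per2 and Cry1 were thus the only members in each other's nearest 3, at 0.864 also without the WT cocaine ZT15 group. Among the members, Per3 and Cry2 gave 0.825, Per1 and Cry2 0.811, Per1 and Per3 0.672 and Cry1 and Cry2 0.111. Without the WT cocaine ZT15 group these were 0.756, 0.739, 0.525 and -0.032, so the 2 cryptochromes did not share a profile over these groups.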

How the data were processed

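Poly(A) RNA of NAcc punches was sequenced from single ends with a stranded kit. The authors aligned reads to mm10 with TopHat and Bowtie and deposited one gene table of FPKM from the Cufflinks tools and Cuffnorm; the annotation release and the Cuffnorm normalization option are not given in the sources used here. The table has 72 columns for 66 libraries, since the 6 ZT3 libraries are listed under both treatments with identical values, and each was used once. Depth and count error are unknown.

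The members and lists were chosen with earlier results of these data known. FPKM were used as deposited, on the log2(FPKM + 1) scale, for the 14643 genes that reached 1 FPKM somewhere. limma 3.58.1 (R 4.3.3, trend) fitted the group means or a 24 h cosine over all libraries, with Benjamini-Hochberg adjustment over all genes and a threshold of 0.05. JTK_CYCLE was rewritten in Python 3.11.15 after the study's rules, with Bonferroni correction over 11 combinations of period (20 and 24 h) and phase and a Dixon test at 95% for replicates, at p under 0.01. The study's window also covers 28 h, which was added as an alternative after the data had been examined. Each group had 3 libraries. The limma p-values use a spread estimated over all libraries of a fit, not over the compared groups alone. Scripts were tested on simulated data. Genes named were the 5 members, at most 4 genes of each list with the lowest rhythm p, and the 3 closest profiles per member; some of these are not reported here. Alternatives were the pseudocount, the filter, scaling, single libraries or time points left out, the set-apart libraries left out or their score as a covariate, a replicate block, and only the libraries compared.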

Additional observations from a re-analysis of the deposited data

Results flagged for a closer look

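For Per3 after cocaine, the iMSN-D2RKO libraries were all above the WT libraries at ZT23 (8.98, 8.88 and 8.11 against 8.04, 7.68 and 7.87 FPKM, ratio of means 1.1) and all below them at ZT15 (10.5, 12.5 and 10.1 against 13.8, 12.7 and 32.1 FPKM, ratio of means 0.565), so that the difference between the genotypes had opposite signs at the 2 time points. A test of that change, added after the data had been examined, gave 0.78 ± 0.23 on the log2 scale (limma, adjusted p = 0.201). Without WT cocaine ZT15 replicate 3 it was 0.37 ± 0.17 (adjusted p = 0.973).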

How the results depend on the processing

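The number of members rhythmic over all libraries lay between 3 and 5 when a replicate was left out. By JTK_CYCLE, WT cocaine had 4 members called at a corrected p under 0.05, 0 without ZT7, 2 without ZT15, 3 with the score removed and 2 with rescaled FPKM, and iMSN-D2RKO cocaine had 2 at 0.05, 2 without ZT11, 2 with the score removed and 0 by a limma cosine. iMSN-D2RKO saline had 1 without the Dixon test or with its 99% value, 4 at 0.05, 0 without ZT11, ZT15 or ZT19, 1 without ZT23, 0 without the set-apart libraries, 1 with rescaled FPKM and 0 by a limma cosine. With 28 h as a further period the counts were 3 in WT saline, 1 in WT cocaine, 2 in iMSN-D2RKO saline and 1 in iMSN-D2RKO cocaine, and no member's call changed. Leaving out single libraries gave 0 to 3 in iMSN-D2RKO saline. In WT cocaine and iMSN-D2RKO cocaine the Per3 call was kept without each library (JTK_CYCLE corrected p of at most 5.59e-04). Time point pairs called were 1 for WT cocaine versus saline without the set-apart libraries (Cry2 at ZT19, -0.64, adjusted p = 0.0418, with 1 library left in each group, 33.2 against 52.2 FPKM, and the spread taken from the other groups) and, for iMSN-D2RKO versus WT after cocaine, 1 with only the libraries compared and 0 to 3 with a library left out. For iMSN-D2RKO cocaine versus saline they were 0 to 1. The cause was not tested.

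Small level differences changed sign. Without the set-apart libraries, WT cocaine versus saline gave -0.0055 for Cry1, -0.090 for Cry2 and -0.032 for Per3, and iMSN-D2RKO versus WT after cocaine gave 0.041 for Cry2 and 0.069 for Per1. Leaving out a library, or all libraries of a replicate number, also gave ranges with both signs. For WT cocaine versus saline they were -0.0058 to 0.060 for Cry1, -0.040 to 0.056 for Cry2 and -0.0034 to 0.30 for Per2. Those of Per3 were -0.057 to 0.14, and -0.074 to 0.59 at ZT15. For iMSN-D2RKO versus WT the ranges after cocaine were -0.075 to 0.012 for Cry2, -0.13 to 0.027 for Per1, -0.22 to 0.085 for Per2 and -0.16 to 0.031 for Per3. In saline the range was -0.061 to 0.0079 for Cry1.

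Replicate numbers only name samples, since same-numbered samples did not deviate together (median r = -0.0027, 205 of 693 pairs over 0.1). With the replicate block the counts stayed at 5 members rhythmic over all libraries and 2 pairs after cocaine between the genotypes (Per1 adjusted p = 0.0419, Per3 0.0249), and the block changed no other call of a member. Precision is limited by 3 libraries per group and an unknown depth.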
